A study of Rattus norvegicus with 30 samples.

Results

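The intercalated cell genes examined here are 9 genes picked by name from the 32545 genes of the deposited table, and each of the 9 was found there once. They are Slc4a1, which marks type A intercalated cells, Slc26a4 and Slc4a9, which mark type B cells, the transcription factor Foxi1, the V-ATPase subunits Atp6v1b1, Atp6v0d2, Atp6v1g3 and Atp6v1c2, and the ammonia transporter Rhcg. Poly(A) RNA of the right kidney of Sprague-Dawley rats, which the study describes as male, was sequenced in 30 libraries, 15 from the cortex (Cx) and 15 from the outer medulla (OM). The AIN-76A diet held 0.4% NaCl (LS), and the HS groups were taken 14 d (HS14) or 21 d (HS21) after a switch to 4.0% NaCl (HS), with 5 libraries for each of the 6 groups. The libraries are numbered 1 to 5 on LS, 6 to 10 at HS14 and 11 to 15 at HS21 in both tissues, and the age of these rats is not given in the sources used here. All groups share the strain and the base diet, and the samples are whole pieces of tissue that hold all cell types of the region.

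Intercalated cells are the acid-base cells of the connecting tubule and collecting duct. Type A cells secrete protons through an apical V-ATPase and return bicarbonate to the blood through the basolateral anion exchanger encoded by Slc4a1. Type B cells work in the reverse direction and secrete bicarbonate in exchange for luminal chloride through pendrin, the product of Slc26a4, while the Slc4a9 product sits in their basolateral membrane. Foxi1 is the transcription factor needed to form both cell types, and Rhcg carries ammonia out of type A and neighboring collecting duct cells. Type A cells are present in the Cx and the medulla, and type B cells are known mainly from the Cx.

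Between 5408126 and 21842843 reads per library were counted on genes, and replicate 10 of OM HS14 was the shallowest. That library also had the highest share of bases mapped to introns and the lowest share mapped to exons of all libraries. Levels are given as CPM, the counts of a gene relative to the size of its library after TMM scaling over the 30 libraries. Replicate 2 of OM LS stood apart, since the summed level of 5 distal convoluted and connecting tubule markers was 438 CPM there and 25.3 to 40.6 CPM in the other OM LS libraries. Proximal tubule markers summed to 17515 CPM in that library and to 1540 to 9382 CPM in the others. Differences that rest on it are therefore also given without it.

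Per kilobase of gene length, Rhcg and Slc4a1 were the most abundant of the 9 genes in Cx LS, with 84.8 ± 6.08 and 77.3 ± 9.08 CPM per kb (SD, n = 5). The ranges of these 2 genes over the libraries overlapped, and both lay above Atp6v1b1 with 56.7 ± 7.71 CPM per kb. Slc4a9 (53.7 ± 5.23 CPM per kb), Atp6v1g3 (45.7 ± 3.58) and Slc26a4 (38.3 ± 7.19) followed, each overlapping its neighbors in this order. Atp6v0d2 (28.4 ± 2.02), Atp6v1c2 (23 ± 2.84) and Foxi1 (15.8 ± 1.52) were the least abundant, and Foxi1 lay below the range of Atp6v1c2. In OM LS the order opened with Slc4a1 at 143 ± 67.6 CPM per kb and Rhcg at 114 ± 40.3, whose ranges overlapped. It closed with Slc26a4 at 2.75 ± 5.05 CPM per kb, of which replicate 2 held 11.8 and the other 4 libraries 0.084 to 0.75 CPM per kb. From Atp6v1b1 at 39.7 ± 7.22 down to Slc26a4 every gene overlapped the next, and Slc26a4 overlapped Foxi1 only through replicate 2.

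**Figure D1:**
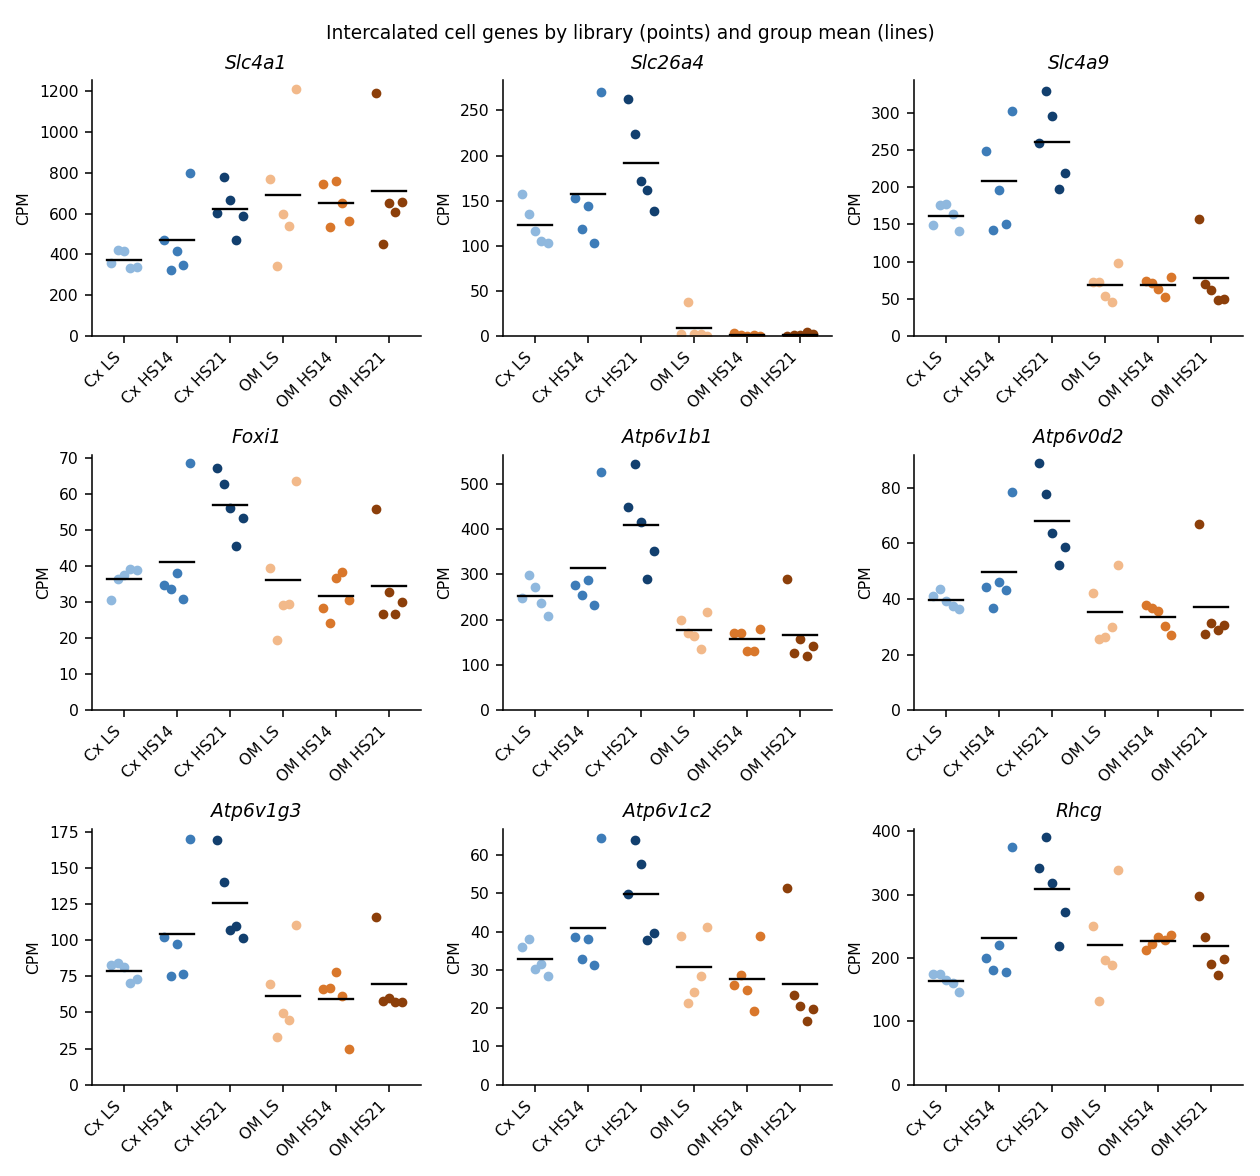
Level of each of the 9 genes in CPM (vertical axes, each from 0) in the 30 libraries, by tissue and diet group. Points are libraries in order of replicate number and lines are group means of 5 libraries. Slc26a4 lies between 103 and 269.9 CPM in the Cx and at or below 3.95 CPM in all OM libraries but replicate 2 of LS (37.9 CPM).

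The type B gene Slc26a4 (chromosome 6, 50808923 to 50846965, minus strand, Rnor_6.0) was close to absent from the OM. On LS its 5 Cx libraries held 158, 135, 116, 105 and 103 CPM. The 5 OM LS libraries held 1.78, 37.9, 2.42, 1.97 and 0.271 CPM, and these come from 29, 444, 38, 31 and 4 counts. No OM library reached the lowest Cx library, and the highest OM value belongs to the library with distal tubule transcripts. In bulk tissue, fewer cells of a type and less RNA per cell cannot be told apart. The fitted log2 ratio of OM to Cx was -3.84 (SE 1.003, adjusted P = 0.0115), and without replicate 2 of OM LS it was -6.26 (adjusted P = 7.00e-07). Slc4a9, the other type B gene (chromosome 18, 29352749 to 29365595, plus strand), was lower in the OM without being near absence. It held 149, 176, 177, 164 and 142 CPM in Cx LS and 72, 72.8, 53.3, 45.2 and 98.6 CPM in OM LS, so that the groups did not overlap. The log2 ratio of Slc4a9 was -1.25 (SE 0.19, adjusted P = 0.000478).

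The type A gene Slc4a1 (chromosome 10, 90296141 to 90312386, minus strand) went the opposite way. It held 358, 422, 419, 332 and 337 CPM in Cx LS and 769, 342, 598, 537 and 1208 CPM in OM LS. Replicate 2 of OM LS fell within the Cx range and the other 4 OM libraries lay above it. The log2 ratio was 0.88 (SE 0.28, adjusted P = 0.0280), and it passed the threshold with a narrow margin. Both tissues were taken from the collected kidneys of each diet group, and with the replicate number as a block the call was lost (0.76, SE 0.30, adjusted P = 0.0912), while Slc26a4, Slc4a9 and Atp6v1b1 kept theirs. Leaving out replicate 1, 4 or 5 of Cx LS or replicate 1 of OM LS brought the adjusted P to between 0.0592 and 0.0683. Leaving out replicate 2 of OM LS gave a log2 ratio of 1.03 (adjusted P = 0.00244), the highest of the 10 fits with 1 library left out. The lowest of these ratios was 0.58. In exact two-sided permutation tests of log2 CPM, which take the libraries as separate samples, over the 6 differences of Slc4a1, Slc26a4 and Slc4a9 between the tissues and between Cx HS21 and LS, the tissue difference of Slc4a1 had P = 0.0317 (adjusted 0.0317). Those of Slc26a4 and Slc4a9 had P = 0.00794, the smallest that 5 against 5 can give (adjusted 0.0119, exact permutation test).

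Slc4a1 also encodes the band 3 protein of red blood cells, and the counts per gene do not separate its kidney and erythroid transcripts. Of 11 erythroid markers 10 were in the table, and their summed level ran from 163 to 518 CPM in Cx LS and from 306 to 701 CPM in OM LS, most of it globin (Hba1 alone averaged 175 and 281 CPM). Of 6 tested, 2 were raised and 1 lowered in the OM, beside 21.3% and 19.5% of all genes tested. The log2 ratio was above 0 for 5 of the 6 (median 0.66). Ahsp, Epb42 and Rhag, which are also specific to the red cell lineage, were at or below 1.16 CPM in every library of these groups. These 3 were named after their values were seen. Red cell RNA and the tissue difference were not tested against each other.

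Within a library, the type A to type B contrast does not depend on scaling between libraries. It was taken as the log2 of the counts per kb of Slc4a1 over the geometric mean of those of Slc26a4 and Slc4a9, with 0.5 added to each count. In Cx LS this ratio was 0.59, 0.82, 0.91, 0.71 and 0.85, which is a mean of 0.77 ± 0.13 (SD, n = 5) or 1.71 times as much Slc4a1. In OM LS it was 5.44, 2.07, 5.07, 5.18 and 7.15, with a mean of 4.98 ± 1.83, and replicate 2 was again the library nearest to the Cx. All OM LS libraries lay above all Cx LS libraries, and the means differed by 4.21, or by 4.94 without replicate 2 of OM LS. The size of the tissue difference depends on which type B gene is used, since Slc4a1 over Slc26a4 alone differed by 6.36 and Slc4a1 over Slc4a9 alone by 2.06 on the log2 scale. Slc4a1 over Slc26a4 alone was 2.59 in replicate 2 of OM LS and 7.35 to 11.4 in the other 4.

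**Figure D2:**
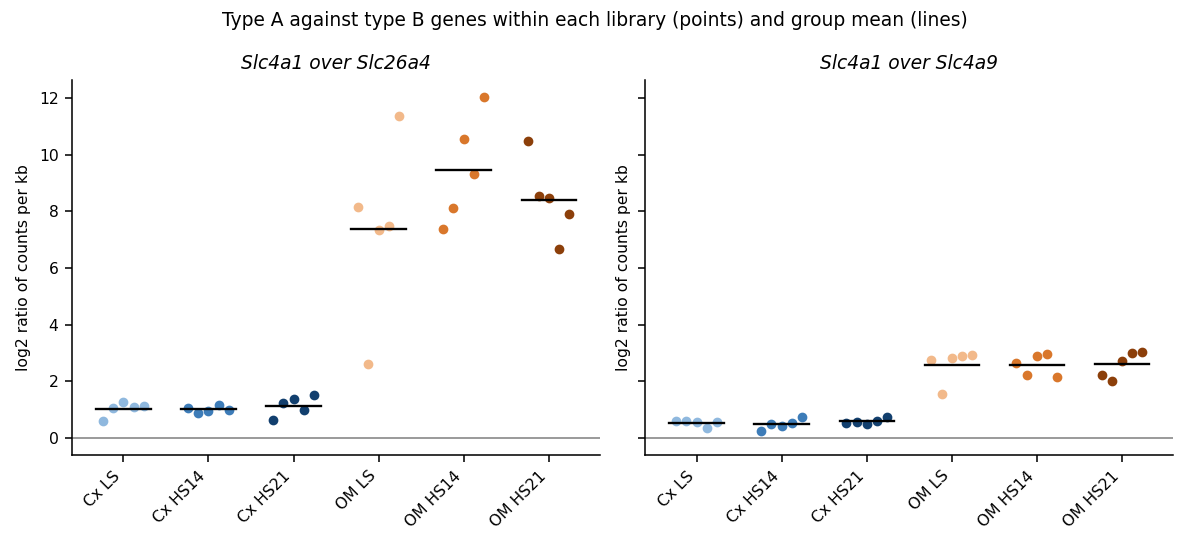
Log2 ratio of counts per kb (vertical axis) of Slc4a1 over Slc26a4 (left) and over Slc4a9 (right) in each of the 30 libraries. Points are libraries and lines are means of 5. Cx groups stay at means of 0.47 to 1.13 in both panels, while OM groups stand at means of 7.39 to 9.48 against Slc26a4 and 2.57 to 2.59 against Slc4a9.

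Of the other 6 genes 1 passed the test between the tissues. Foxi1 (chromosome 10, 19160582 to 19164505, minus strand) held 30.5, 36.4, 37.4, 39.1 and 38.8 CPM in Cx LS and 39.6, 19.4, 29.2, 29.4 and 63.6 CPM in OM LS. The OM values spanned the Cx values on both sides, at a log2 ratio of -0.02 that did not pass (SE 0.26, adjusted P = 0.965). Rhcg (chromosome 1, 141325856 to 141349881, minus strand) held 174, 175, 165, 160.2 and 146 CPM in Cx LS and 250.5, 132, 196, 189 and 339 CPM in OM LS, and its log2 ratio of 0.42 (SE 0.21) did not pass the test (adjusted P = 0.130). Without replicate 2 of OM LS, the lowest of the 5, it did (0.55, adjusted P = 0.0146). Atp6v1b1 was lowered at a log2 ratio of -0.52 (SE 0.14, adjusted P = 0.0131) with overlapping groups, and the other 3 V-ATPase subunits had log2 ratios of -0.36 to -0.10 that did not pass. In all, 1 of the 9 genes was raised and 3 were lowered in the OM, while 21.3% of the 14295 genes tested were raised and 19.5% lowered. The groups did not overlap for 2 of the 9 genes and for 29% of all genes tested. Over all genes 482 were raised and 423 lowered with the share of bases mapped to introns in each library as a covariate. With that covariate none of the 4 calls passed, and the log2 ratios were -1.37 for Slc26a4 (adjusted P = 0.571) and 0.47 for Slc4a1 (adjusted P = 0.735). The intron share was higher in every OM LS library than in any Cx LS library, so the fit cannot clearly separate it from tissue.

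In the Cx, all 9 genes were higher after 21 d of HS, at log2 ratios of 0.60 to 0.91 (adjusted P from 0.000327 to 0.0142). Their median log2 ratio was 0.69, and that of all 14299 genes tested was 0.0046. Of all genes tested 18.9% were raised and 20.5% lowered. Slc4a1 held 602, 780.4, 669, 471 and 588 CPM at HS21, above each of the LS libraries given before, which is a rise of 0.73 on the log2 scale (SE 0.12, adjusted P = 0.000854). Slc4a9 held 259, 329, 296, 197 and 218 CPM, also without overlap, and rose by 0.69 (SE 0.13, adjusted P = 0.00171). Slc26a4 held 263, 224, 172, 161 and 138 CPM, and the lowest of these fell within the LS range, whose highest library had 158 CPM, while the other 4 lay above it. The log2 ratio of Slc26a4 was 0.63 (SE 0.18, adjusted P = 0.0142).

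Foxi1 held 67.2, 62.7, 56, 45.6 and 53.4 CPM at HS21, which was higher than each LS library, and rose by 0.64 (SE 0.10, adjusted P = 0.000671). Rhcg had the highest log2 ratio of the 9 genes at 0.91 (SE 0.13, adjusted P = 0.000327), with 341, 391, 319, 219 and 272 CPM against at most 175 CPM on LS. The groups did not overlap for 6 of the 9 genes, beside 26.6% of all genes tested. Slc26a4, Atp6v1b1 and Atp6v1c2 were the exceptions. Atp6v0d2 ranged from 36.3 to 43.4 CPM on LS and from 52.2 to 88.7 CPM at HS21, and Atp6v1g3 from 70.6 to 84.1 CPM and from 101 to 169.8 CPM.

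The call on the 9 genes held with DESeq2, with total-count scaling, without the low-count filter and with any 1 of the 10 libraries left out. It did not hold in 2 other fits. In one fit of all 30 libraries, which takes its spread from the OM as well, 3 of the 9 passed (Atp6v1b1, Atp6v0d2 and Rhcg) at nearly the same ratios. That fit called 1397 of all 15494 genes raised and 883 lowered. With the intron share as a covariate 1 of the 9 passed (Foxi1), beside 699 of all 14299 genes raised and 893 lowered. The log2 ratio of Slc26a4 went from 0.63 to 0.03 in that fit (adjusted P = 0.950) and that of Atp6v1c2 from 0.60 to 0.08 (adjusted P = 0.847). Every Cx HS21 library had a higher intron share than any Cx LS library, so this fit cannot clearly separate intron share from diet.

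**Figure D3:**
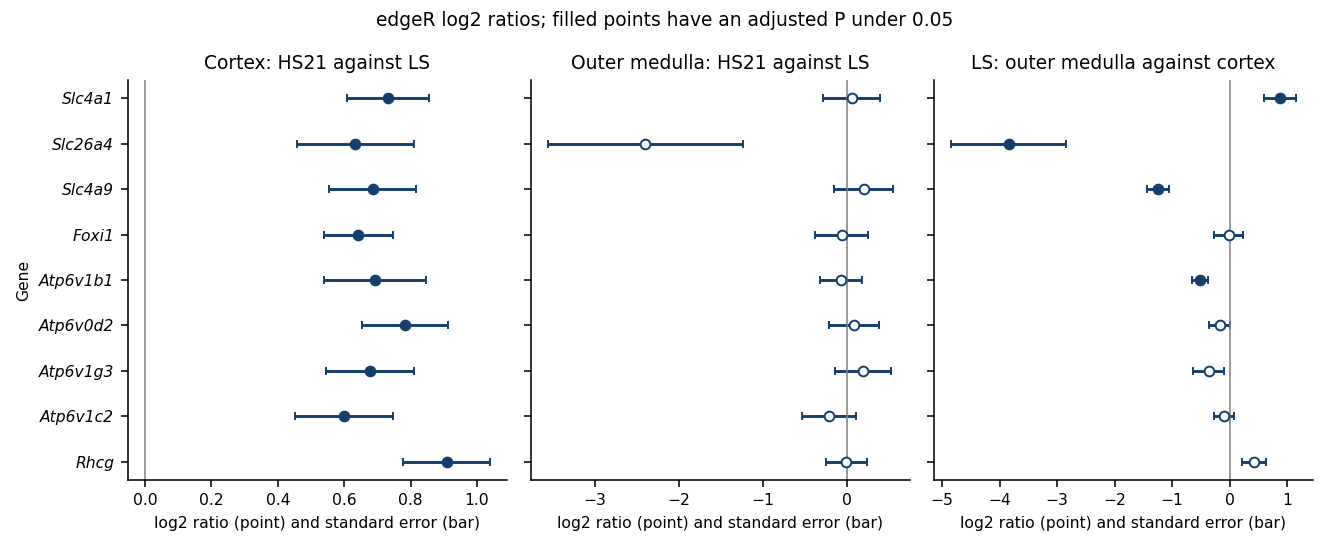
Log2 ratios of the 9 genes (points; horizontal axes differ in range) with their standard errors (bars) from edgeR in 3 comparisons of 5 against 5 libraries. Filled points have an adjusted P under 0.05. All 9 genes lie at 0.60 or more in the Cx at HS21, none is filled in the OM at HS21, and between tissues on LS Slc4a1 is filled above 0 and Slc26a4, Slc4a9 and Atp6v1b1 below it.

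The balance of type A to type B genes in the Cx moved by less than the spread between libraries. The within-library log2 ratio of Slc4a1 to the pair of type B genes was 0.57, 0.89, 0.93, 0.77 and 1.12 at HS21, a mean of 0.86 ± 0.20 (SD, n = 5). It differed from the LS mean by 0.08, which is less than the SD between libraries of 0.17, and leaving out any 1 library gave differences of 0.01 to 0.15. At HS14 the ratio was 0.64, 0.68, 0.67, 0.84 and 0.85, with a mean of 0.74 ± 0.10. No test was run on this ratio, and the values do not show that the 2 cell types respond alike. Single-gene permutation tests at HS21 gave P = 0.00794 for Slc4a1 and Slc4a9 (adjusted 0.0119) and P = 0.0159 for Slc26a4 (adjusted 0.0190, exact two-sided permutation test).

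After 14 d none of the 9 genes passed the test in the Cx. Their log2 ratios to LS were 0.17 to 0.49 with a median of 0.33. None of the 9 was called by edgeR (1 with an unadjusted P under 0.05) or by DESeq2 (3 unadjusted). Over all genes edgeR called 1.14% of 14181 raised and 1.18% lowered, and DESeq2 called 492 of 14165 raised and 429 lowered. At an unadjusted P under 0.05 edgeR had 1284 raised and 1178 lowered, and DESeq2 had 1353 and 1153. Rhcg came closest with 200.1, 181, 219.8, 178 and 375 CPM, all above the LS libraries, and a log2 ratio of 0.49 (SE 0.18, adjusted P = 0.191). Of the 9, only Rhcg was without overlap, which held for 5.07% of all genes tested.

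Replicate 10 of Cx HS14 was the highest of its group for all 9 genes. Slc4a1 was at 473, 322, 416, 348 and 798 CPM in the 5 libraries, Slc26a4 at 153, 118, 145, 103 and 269.9 CPM and Slc4a9 at 248, 142, 195, 151 and 302 CPM. The same library was the highest of the group for the summed principal cell markers (1384 CPM, others 825 to 1106) and distal tubule markers (3399.9 CPM, others 1884 to 2291), and the lowest for the summed proximal tubule markers (10410.0 CPM, others 14597 to 14790). The part of these differences in the levels of the 9 genes was not tested. Without this library the HS14 log2 ratios of the 9 genes were -0.10 (Foxi1) to 0.24 (Rhcg), with 0.05 for Slc4a1 and 0.06 for Slc26a4, and none was called. Between HS21 and HS14 none of the 9 was called by edgeR (2 unadjusted) or DESeq2 (3 unadjusted), at log2 ratios of 0.27 to 0.47. Over all genes edgeR called 6.5% of 14395 raised and 9.69% lowered, and DESeq2 called 1478 of 14102 raised and 1801 lowered. At an unadjusted P under 0.05 edgeR had 2257 raised and 2573 lowered, and DESeq2 had 2380 and 2572. All 9 overlapped between these groups, while 9.66% of all genes tested did not. Without replicate 10, 7 of the 9 were raised. The exceptions were Slc26a4, with a log2 ratio of 0.56 (adjusted P = 0.0537), and Slc4a9. The share of all genes raised without replicate 10 is not given here, so the 7 cannot be set against it.

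The V-ATPase is a proton pump of many subunits, and intercalated cells use isoforms of some of them that most other cells lack. Atp6v1b1 (chromosome 4, 115416580 to 115437206, plus strand), Atp6v1g3 (chromosome 13, 55274199 to 55288651, plus strand) and Atp6v1c2 (chromosome 6, 42585934 to 42630983, minus strand) encode subunits of the cytosolic part that splits ATP. Atp6v0d2 (chromosome 5, 33843519 to 33892462, minus strand) encodes a subunit of the membrane part. Their broadly expressed counterparts are Atp6v1b2, Atp6v1g1, Atp6v1c1 and Atp6v0d1. In Cx LS each restricted isoform was less abundant per kb than its counterpart, with 0.20 times as much Atp6v1b1 as Atp6v1b2 and 0.15 times as much Atp6v0d2 as Atp6v0d1 (geometric means of 5 libraries).

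At HS21 in the Cx the restricted isoforms rose while 3 of the 4 counterparts fell. Atp6v1b1 went from 248.6, 298, 272, 237 and 208 CPM on LS to 448, 543, 415, 289.9 and 350.4 CPM, a rise of 0.69 on the log2 scale (SE 0.15, adjusted P = 0.00403). Atp6v1b2 went from 741, 751, 723, 784 and 771 CPM to 418, 419, 465, 450.1 and 459.8 CPM, which was a log2 ratio of -0.77 with an SE of 0.05 (adjusted P = 3.28e-06). The 2 B subunit isoforms thus moved in opposite directions, with overlap between the groups only for Atp6v1b1. Atp6v0d2 was raised by 0.78 (SE 0.13) and Atp6v0d1 lowered at -0.28 (SE 0.05), and Atp6v1c2 was raised by 0.60 (SE 0.15) and Atp6v1c1 lowered at -0.30 (SE 0.05). Atp6v1g3 was raised by 0.68 (SE 0.13), while Atp6v1g1 had a log2 ratio of -0.05 (SE 0.04) that did not pass the test (adjusted P = 0.321).

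Within libraries, the log2 ratio of Atp6v1b1 to Atp6v1b2 was -2.29, -2.05, -2.13, -2.44 and -2.61 in Cx LS and -0.62, -0.34, -0.88, -1.35 and -1.11 in Cx HS21. These ranges do not overlap, and at HS14 replicate 10 (-0.63) was the only library above -1.97. In the OM the same ratio was at means of -1.19 ± 0.34 on LS, -1.35 ± 0.49 at HS14 and -1.33 ± 0.61 at HS21 (SD, n = 5). The OM mean on LS lay above the Cx mean of -2.30 ± 0.23, and Atp6v1b2 itself was lower in the OM at a log2 ratio of -1.63 (SE 0.09, adjusted P = 1.27e-06).

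**Figure D4:**
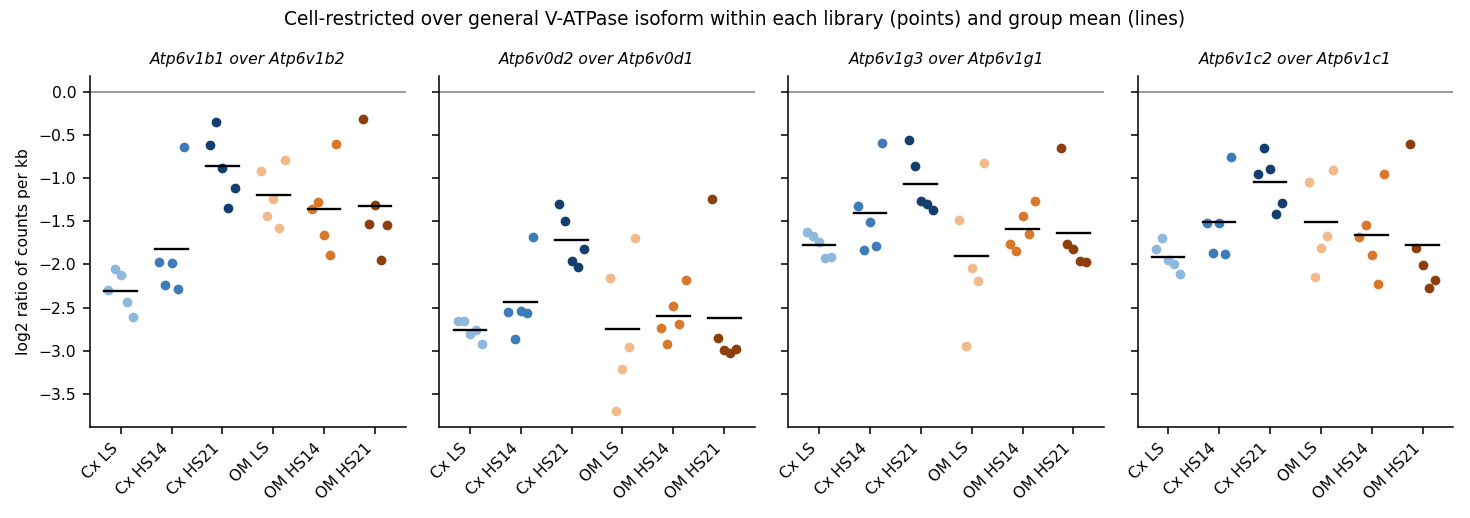
Log2 ratio of counts per kb (vertical axis, shared) of each restricted V-ATPase isoform over its general counterpart in each of the 30 libraries. Points are libraries and lines are means of 5. The ratios of Atp6v1b1 to Atp6v1b2, Atp6v0d2 to Atp6v0d1, Atp6v1g3 to Atp6v1g1 and Atp6v1c2 to Atp6v1c1 have higher means in Cx HS21 (-0.86, -1.72, -1.07 and -1.04) than in Cx LS (-2.30, -2.76, -1.77 and -1.91).

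Among 17 general subunits and accessory proteins in the Cx at HS21, 2 were raised and 5 lowered (median log2 ratio -0.09), beside the 18.9% and 20.5% of all genes tested. Atp6v1a, the catalytic subunit, was lowered at -0.44 (SE 0.06, adjusted P = 0.000319). The others that moved were picked after their values were seen. Atp6v1d was lowered at -0.13 (SE 0.04), Atp6v0e1 raised by 0.16 (SE 0.05) and Tcirg1 raised by 0.75 (SE 0.12). Tcirg1 encodes the a subunit isoform best known from osteoclasts and is also expressed by macrophages, whose 11 tested markers were all raised here. The part of macrophages in the rise of Tcirg1 was not tested. Atp6v0a4, the a subunit isoform of intercalated cells and proximal tubules, held 714 to 821 CPM on LS and 587 to 754 CPM at HS21, and its log2 ratio of -0.15 (SE 0.07) did not pass (adjusted P = 0.114).

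Forkhead factors such as Foxi1 bind DNA with a core of TGTTTA, often followed by C. The 9 genes moved together in the Cx, and the sequence before their start sites was searched for TGTTTA and for TGTTTAC, which contains it, on both strands. RefSeq promoters of the GRCr8 build, 250 bases before to 50 after the start, were given for 7 of the 9 genes, Slc4a1 and Atp6v0d2 being the others. TGTTTAC was found in 1 of the 7, Atp6v1b1, and in 3.78% of all 33469 promoters. TGTTTA was found in 2 of the 7, Atp6v1b1 and Atp6v1g3, and in 13.7% of all. A match is a description of the letters and not a binding site. The 250 bases before the start of the 2 genes with a match and of Slc26a4, a type B gene without one, are shown 5′ to 3′ on the strand of the gene, with matches in capitals. They lie at chr4:117781194-117781443 (plus), chr13:52362082-52362331 (plus) and chr6:53873217-53873466 (minus).
Atp6v1b1: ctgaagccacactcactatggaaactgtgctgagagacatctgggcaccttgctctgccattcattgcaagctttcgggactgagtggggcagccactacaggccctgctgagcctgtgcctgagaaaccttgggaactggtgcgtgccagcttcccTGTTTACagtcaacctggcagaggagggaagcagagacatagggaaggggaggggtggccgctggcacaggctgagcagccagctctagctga
Atp6v1g3: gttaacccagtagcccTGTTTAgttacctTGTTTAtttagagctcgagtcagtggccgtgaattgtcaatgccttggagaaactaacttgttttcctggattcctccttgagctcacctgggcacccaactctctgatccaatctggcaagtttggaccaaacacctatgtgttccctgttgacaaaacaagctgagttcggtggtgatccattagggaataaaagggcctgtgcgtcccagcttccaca
Slc26a4: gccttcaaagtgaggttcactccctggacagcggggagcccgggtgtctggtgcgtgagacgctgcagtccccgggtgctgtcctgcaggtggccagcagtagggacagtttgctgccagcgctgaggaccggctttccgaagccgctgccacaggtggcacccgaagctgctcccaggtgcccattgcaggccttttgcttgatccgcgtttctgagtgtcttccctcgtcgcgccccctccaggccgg
The match of Atp6v1b1 begins at base -93 from the start, and those of Atp6v1g3 begin at -234 and -221. All 3 stand on the strand of the gene. The log2 ratios of the 3 genes in the Cx at HS21 were 0.69 for Atp6v1b1, 0.68 for Atp6v1g3 and 0.63 for Slc26a4.

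In the OM none of the 9 genes was called at either time. At HS21 the log2 ratios of the 8 genes other than Slc26a4 were -0.22 to 0.19. No member had an unadjusted P under 0.05 by edgeR, beside 1012 genes raised and 625 lowered at that threshold among the 14555 tested. After adjustment edgeR called 0.639% of the 14555 raised and 0.131% lowered, and none of the 9 genes. DESeq2, which gave Slc26a4 no adjusted P in either OM comparison with LS, called no member. Over all 14530 genes it tested, it called 535 raised and 166 lowered. Slc4a1 held 1190.1, 453, 652, 608 and 655 CPM at HS21, and its log2 ratio to LS was 0.05 (SE 0.34, adjusted P = 0.986). Slc26a4 held 0.522, 0.77, 1.2, 3.95 and 1.8 CPM at HS21. Its log2 ratio of -2.40 (SE 1.16, adjusted P = 0.492) rested on replicate 2 of OM LS, without which it was 0.02. At HS14 none of the 9 was called by edgeR or by DESeq2. By edgeR 1, Slc26a4, had an unadjusted P under 0.05 at a log2 ratio of -3.01, which was -0.58 without replicate 2 of OM LS. Over all genes edgeR called 0.00694% of 14417 raised and 0% lowered, and DESeq2 called 90 of 14363 raised and 19 lowered. At an unadjusted P under 0.05 edgeR had 617 raised and 209 lowered. None of the 9 was without overlap at HS14 or HS21 in the OM, where 1.53% and 3.48% of all genes tested were. Slc26a4 was at 2.98, 1.25, 0.304, 0.642 and 0 CPM at HS14. The 0 came from the shallowest library, which also had the highest intron share and in which Slc4a1 had 3156 counts. Between HS21 and HS14 in the OM none of the 9 was called by either tool or had an unadjusted P under 0.05. Over all genes edgeR called 0% of 14499 in both directions, and DESeq2 called 17 of 14463 raised and 10 lowered. At an unadjusted P under 0.05 edgeR had 337 raised and 210 lowered, and DESeq2 had 403 and 320. None of the 9 was without overlap there, and 0.655% of all genes tested were.

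The OM libraries varied among themselves more than the Cx libraries on LS. The 9 genes summed to 1112 to 1409 CPM in Cx LS and to 854 to 2131 CPM in OM LS. Replicate 5 was the highest OM LS library for 8 of the 9 genes, and its principal cell markers summed to 3017 CPM against 663 to 1511 CPM in the others. Replicate 11 was the highest OM HS21 library for 8 of the 9 genes, with 67 CPM of Atp6v0d2 against 27.5 to 31.2 CPM in the others. Its principal cell markers, at 1588 CPM, were within the range of the other OM HS21 libraries, 1053 to 1664 CPM.

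The interaction of tissue and diet compared the change at HS21 in the OM with that in the Cx. All 9 interaction ratios were negative, from -0.50 to -0.93 for the 8 genes other than Slc26a4 and -3.00 (SE 1.12) for Slc26a4, which was -0.58 without replicate 2 of OM LS. None passed the test by edgeR (5 with an unadjusted P under 0.05) or DESeq2 (5 unadjusted). Over all genes edgeR called 0.448% of 15194 raised and 0.217% lowered, and DESeq2 called 350 of 14549 raised and 206 lowered. At an unadjusted P under 0.05 edgeR had 1001 raised and 1366 lowered, and DESeq2 had 1204 and 1397. Rhcg had the smallest adjusted P of 0.139 at -0.93 (SE 0.29). Rhcg passed without replicate 2 of OM LS (-1.05, adjusted P = 0.0207), and Atp6v1b1 (-1.07, adjusted P = 0.0324) and Atp6v1c2 (-1.22, adjusted P = 0.0335) passed without replicate 11 of OM HS21. The interaction ratio of Atp6v1b2 was 0.76 (SE 0.11, adjusted P = 0.00501), so that its fall was larger in the Cx. At HS14 none of the 9 passed by edgeR or DESeq2 (1 unadjusted by each). Over all genes edgeR called none of the 15091 tested, and DESeq2 called 7 of 15022 raised and 2 lowered. At an unadjusted P under 0.05 edgeR had 281 raised and 278 lowered, and DESeq2 had 399 and 279.

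Further genes known from intercalated cells were measured too. At HS21 in the Cx 18.9% of all genes tested were raised and 20.5% lowered. Of 17 such genes 10 were raised and none lowered (median log2 ratio 0.57), and 13 of the 17 had a ratio above 0. They include Aqp6, an aquaporin of type A cell vesicles (0.76, SE 0.12, adjusted P = 0.000719), Adgrf5, an adhesion receptor (0.54, SE 0.09, adjusted P = 0.000859), and the receptor kinase Kit (0.57, SE 0.10, adjusted P = 0.00127). The 4 genes with a ratio below 0, named after their values were seen, were Tfcp2l1 (-0.27), Atp6v0a4 (-0.15), the carbonic anhydrase Car2 (-0.15) and Slc4a8 (-0.04), and none of them passed the test. Between the tissues on LS 5 of the 17 were raised and 6 lowered in the OM, beside 21.3% and 19.5% of all genes tested. Slc26a7, an anion exchanger of medullary type A cells, was higher in the OM at a log2 ratio of 2.54 (SE 0.35, adjusted P = 0.000283). Oxgr1, the 2-oxoglutarate receptor of type B cells, was lower at -1.66 (SE 0.18, adjusted P = 5.93e-05), and the transcription factor Tfcp2l1 was lower at -0.78 (SE 0.13, adjusted P = 0.000772).

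Markers of the neighboring tubule cells rose in the same Cx libraries. Over all genes tested there, 18.9% were raised and 20.5% lowered. Of 9 tested principal cell markers 8 were raised (median log2 ratio 0.80). Among these 8 were the epithelial sodium channel subunits Scnn1b (0.98, SE 0.13) and Scnn1g (0.94, SE 0.14) and the water channel Aqp2 (1.10, SE 0.16). All 4 tested markers of the distal convoluted and connecting tubule were raised (median 0.78), with Slc12a3, the thiazide-sensitive cotransporter, at 0.83 (SE 0.15). The mean log2 CPM of the 9 genes exceeded that of the principal cell markers by 1.91 ± 0.12 in Cx LS and by 1.88 ± 0.21 in Cx HS21 (SD, n = 5), a difference within the spread between libraries. Of 7 proximal tubule markers 6 were lowered (median -0.96), with the endocytic receptors Lrp2 at -0.99 (SE 0.08) and Cubn at -0.96 (SE 0.09). The other 1 had a log2 ratio of 0.98 that did not pass the test. The sum of the 7 ran from 14253 to 15691 CPM on LS and from 8226 to 11279.8 CPM at HS21. All 11 tested macrophage markers were raised (median 1.78), and 2 of 5 thick ascending limb markers were raised and 1 lowered. The part of these other cell types in the rise of the 9 genes was not tested.

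The 6 tested erythroid markers all had log2 ratios above 0 in the Cx at HS21, with a median of 1.11. None of them was called by edgeR (4 with an unadjusted P under 0.05, 1 called by DESeq2), and the log2 ratio of Hba2 was 1.25 (adjusted P = 0.0645, SE 0.49). Of all 14299 genes tested by edgeR, 3354 were raised and 3530 lowered at an unadjusted P under 0.05. DESeq2 called 2976 of 14277 raised and 2899 lowered. The sum of the 10 measured markers was 306, 319, 345, 792 and 1642 CPM in the HS21 libraries, highest in replicates 14 and 15, where Slc4a1 was at 471 and 588 CPM, lower than in the other 3. The part of red cell RNA in the rise of Slc4a1 was not tested.

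**Figure D5:**
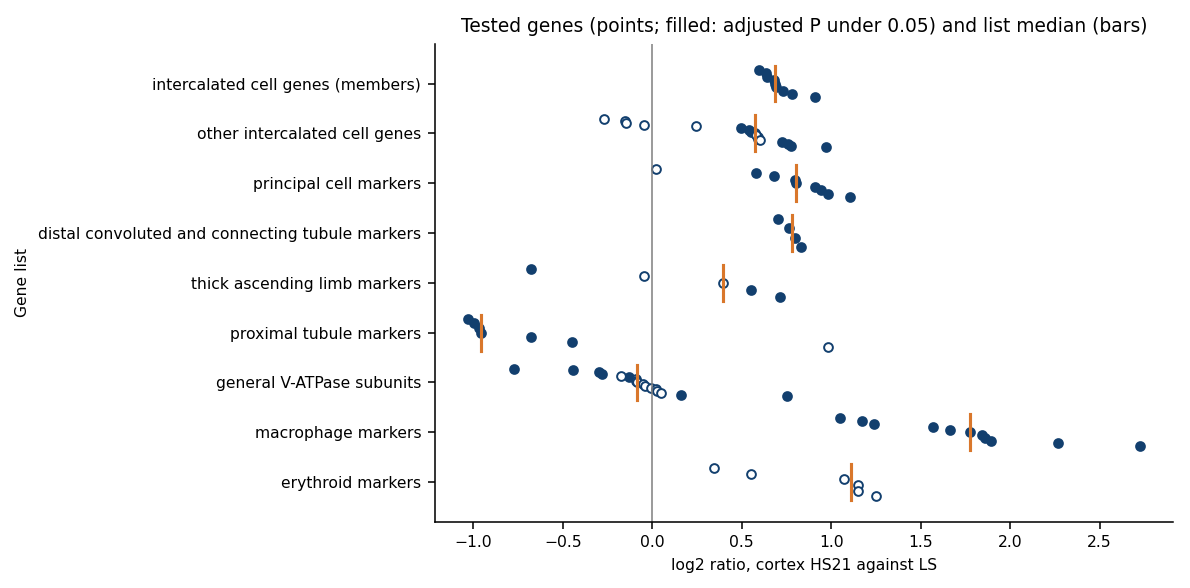
Log2 ratio of Cx HS21 to LS (horizontal axis) of each tested gene (points, filled at an adjusted P under 0.05) in 9 gene lists (vertical axis), with the list median (bars). The medians are 0.69 for the 9 genes, 0.80 for principal cell markers and 0.78 for distal tubule markers, and -0.96 for proximal tubule markers.

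Across the 15 Cx libraries, genes whose log2 CPM closely resembled that of Slc4a1 among 13279 protein-coding genes included Dnm1 (Pearson r = 0.97), Atp6v1b1 (0.96), Adcy6 (0.96) and Aqp6 (0.96), and Slc4a9 ranked 6. For Slc26a4 they were Atp6v1g3 (r = 0.96), Cacna1d (0.96), Hepacam2 (0.94), Slc9a4 (0.93) and Pde1a (0.93), and Slc4a1 ranked 125. Slc4a9, the other type B gene, ranked 188 for Slc26a4 (r = 0.83) against 6 for Slc4a1 (r = 0.96). By r it was thus less like Slc26a4 than like the type A gene. Slc4a1 and Slc26a4 had a Pearson r of 0.85 and a Spearman rho of 0.83 with each other. These values describe libraries that share diet groups and depth, and replicate 10 of HS14 contributes to each of them. Across the 15 OM libraries Slc4a1 was most like Foxi1 (r = 0.93), Rhbg (0.91), Pald1 (0.89), Lypd6 (0.89) and Aqp6 (0.88). Slc26a4 was most like Calb1 (r = 0.96), Polm (0.94), Dram2 (0.94), Ctsl (0.94) and Tom1 (0.94) there, at counts that included 0. Their Spearman rho with Slc26a4 was 0.89 to 0.95. Replicate 2 of OM LS held 37.9 CPM of Slc26a4 against at most 3.95 CPM in the other OM libraries. It contributes to each of these r, and none was taken without it. In the OM the r of Slc26a4 with Slc4a1 was -0.53 (rho -0.38). Slc4a9 had an r of 0.54 with Slc4a1 and -0.30 with Slc26a4. Calb1 encodes the calcium-binding protein calbindin of the distal convoluted and connecting tubule.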

How the data were processed

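The authors aligned paired reads to Ensembl Rnor_6.0 with HISAT2 2.0.5 and counted them per gene with featureCounts 1.5.0-p3, and StringTie 1.3.3b is also named in the submitters' processing notes. The libraries were non-directional, so reads of genes that overlap on opposite strands cannot be told apart, and featureCounts ran with default settings. The deposited counts are raw whole numbers, and the FPKM values were deposited beside them by the authors and used here only for one alternative ratio. The deposited gene length in bases gave values per kb. Columns with the authors' group means, fold changes and P values of 7 comparisons were not used. No label says how the libraries were spread over runs.

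Genes were tested with edgeR 4.0.16 (R 4.3.3): filterByExpr, TMM, quasi-likelihood F-test, Benjamini-Hochberg adjustment over all genes tested, and adjusted P under 0.05 as the threshold. Each comparison used its own 10 libraries, and the interactions 20. The log2 CPM used a prior count of 2. Alternatives were DESeq2 1.42.0, total-count scaling, no low-count filter, one fit of 30 libraries, the intron share of each library from the study's mapping table, a replicate block and leaving out each library. The fits were tested on simulated data with 200 changed genes. Labels do not say that libraries of a group come from separate animals beyond their numbers, so P values measure the spread between these libraries.

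The 9 genes, the marker lists and the tests were chosen with earlier results of these data known. Of 93 listed symbols 92 were found. Named in full were the 9 genes, the 4 general counterparts and Atp6v0a4, and from other lists up to 3 genes with the smallest adjusted P per comparison, with exceptions named where they occur. Likeness was ranked among protein-coding genes averaging 1 CPM or more, naming 5 for each gene, of which 1 is not reported here. All 30 libraries were used.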

Additional observations from a re-analysis of the deposited data

Results flagged for a closer look

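In 14 of 54 tests of 5 libraries each, the highest or lowest CPM of a gene lay apart from the rest by Dixon's criterion (gap over range above 0.71), where chance flags about 1 in 20 groups. The tests share libraries and are not independent. For Slc26a4 the library was replicate 2 of OM LS (37.9 CPM, next 2.42 CPM).

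Replicate 11 of OM HS21 stood apart for 7 genes, with 1190.1 CPM of Slc4a1, 158 CPM of Slc4a9, 55.9 CPM of Foxi1, 289 CPM of Atp6v1b1, 67 CPM of Atp6v0d2, 116 CPM of Atp6v1g3 and 51.5 CPM of Atp6v1c2. The nearest other library had 655, 70.4, 32.7, 158, 31.2, 60 and 23.3 CPM of these genes. Its summed proximal tubule markers were 2878 CPM, lower than the 7322 to 8159 CPM of the other 4.

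Replicate 10 of Cx HS14 stood apart for 6 genes, with 68.5 CPM of Foxi1, 526 CPM of Atp6v1b1, 78.3 CPM of Atp6v0d2, 170.0 CPM of Atp6v1g3, 64.5 CPM of Atp6v1c2 and 375 CPM of Rhcg. The nearest other library had 38.1, 287, 46.2, 102, 38.5 and 219.8 CPM. What sets these libraries apart was not tested.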

How the results depend on the processing

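The count of 9 genes raised in the Cx at HS21 was 9 with DESeq2, total-count scaling, no filter and each library left out (9 to 9), 3 in one fit of 30 libraries and 1 with the intron share. Over all genes, 1397 of 15494 were raised in the fit of 30 libraries and 699 of 14299 with the intron share. Between the tissues on LS the 1 raised and 3 lowered became 2 raised with total-count scaling (Rhcg joined; Atp6v1b1 lost its call), 0 raised and 0 lowered with the intron share, and 0 raised with the replicate block, where Slc4a1 had 0.76 (adjusted P = 0.0912). Of all 14295 genes, 5546 were raised and 1842 lowered with total-count scaling, 482 and 423 with the intron share, and 2442 and 2569 with the block. Leaving out 1 library gave 0 to 2 of the 9 raised and 3 to 4 lowered. DESeq2 gave Slc26a4 no adjusted P there. At the HS21 interaction the 0 lowered became 1 with the intron share (Slc26a4) and 0 to 2 with 1 library left out. HS21 against HS14 in the Cx gave 0 to 7 raised with 1 library left out. Over all genes the intron share fit of the HS21 interaction called 57 of 15194 raised and 54 lowered. Shares over all genes are not given here for fits with 1 library left out. The exact permutation difference of Slc4a1 between tissues ran from 0.54 to 0.99 with 1 library left out, and its adjusted exact P rose above 0.05, to 0.0714 at most, without replicate 5 of OM LS or replicate 1, 4 or 5 of Cx LS. The tissue difference in type A to type B ratio was 4.21, 6.36 with Slc26a4 alone and 2.06 with Slc4a9 alone. Over 126 single-gene results in all comparisons, 18 calls were lost and 1 gained with the intron share, 11 lost in the fit of 30 libraries and 3 lost and 1 gained with total-count scaling. No call turned its direction, and the cause of these changes was not tested. The intron share did not overlap between Cx HS21 and Cx LS or between the tissues on LS. Its fits there cannot clearly separate it from diet or tissue.

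Over all genes, DESeq2 called 492 raised and 429 lowered in the Cx at HS14 (162 and 168 by edgeR), and one fit of 30 libraries called 10 and 9. Total-count scaling moved the median log2 ratio of all genes to 0.13 in the Cx at HS21 and to 0.27 between the tissues, and the Cx HS21 calls to 4401 raised and 1653 lowered. Equal replicate numbers correlated above 0.1 in 10 of 15 tissue pairs (r from -0.07 to 0.44), and 13 of 15 correlated best with their own number, a hint that equal numbers are the same rat. On LS 2 of 5 pairs were above 0.1, and the sources do not tie the numbers to rats, so the fits are reported without the block. The replicate block changed no other call of the 9 genes. Depth limits Slc26a4 in the OM, where most libraries held under 50 counts.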
